A study of Mus musculus with 4 samples.

Results

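Ligament of wild type mice was compared with mesenchymal stem cells, the cultured precursors of connective tissue from which the study set out to make ligament, to show how far the starting cells lay from the tissue. The measure was the spot signal of a single-colour (Cy3) Agilent mouse array, 1 array for each side, taken as log2 and set relative to the 75th percentile of the array. A gene entered when the scanner software marked its probe as well above background on either array. This gave 18509 genes of the 30154 names on the array. A difference is always ligament minus cells on the log2 scale. Genes count as higher or lower once they pass 2-fold.

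The cells came from C3H mouse embryos through the RIKEN cell bank and were grown in medium with foetal bovine serum, without transfection. The wild type ligament came from C57BL/6J mice and carried no transgene. The series also holds an array of ligament from C57BL/6J mice transgenic for a mouse gene with no other name than A in the labels, and an array of ligament-like tissue made by transfecting the same C3H cells with A in the pCAGGS plasmid. These latter arrays are the transgenic ligament and the transfected tissue below and were not used to choose the genes. The site of the ligament, the age and number of the mice and any pooling are not in the labels. Strain, embryonic or later origin and culture or body differ together between the sides and cannot be told apart. With 1 array a side there is no test, no p-value and no replicate error, and every value describes these arrays.

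Ligament joins bone to bone and is built by fibroblasts that deposit collagen fibrils, small proteoglycans that govern fibril width, and elastic fibres. Scleraxis (Scx) and mohawk (Mkx) are transcription factors of tendon and ligament cells, and tenomodulin (Tnmd) is a membrane protein of their mature state. Cells in serum-fed culture divide, spread on the dish and make much matrix, while a dissected ligament also brings whatever lies on or in it, such as muscle, marrow, fat, vessels or skin.

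The array of the cells had 56.3% of its spots well above background and that of the ligament 48.9%, with no saturated spot. The 75th percentile of the signal was 1165 units in cells and 285 in ligament. The lowest relative signal that counted as well above background was -3.41 in ligament and -5.79 in cells, so a gene low in ligament was lost sooner than a gene low in cells. Probes spotted 10 times varied with an SD of 0.0989 log2 units in ligament and 0.185 in cells, or 0.210 for a difference. That SD holds the spotting and scanning error alone.

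Of the 18509 genes, 6233 were higher in ligament (33.7%) and 4059 lower (21.9%). These shares are the background for every gene group below, and 55.6% of all genes lay past 2-fold in either direction. The median difference of all genes was 0.29. Both arrays measured 13396 genes, 1661 were well above background in ligament alone, and 3452 in cells alone. Where one side was dim, the difference is given as "at least": the dim side was set to its own signal or to the detection limit of its array, whichever was brighter. For 1972 of the genes seen in cells alone the bound reached no difference at all. All 1661 genes seen in ligament alone counted as higher, with the detection limit lying lower in cells. In the lists below, the call of such a gene says no more than its detection does. Gm5745 at 1.00001 and Tsku at -1.0001 lay just inside the 2-fold line, and U2af1l4 at 0.99996 and Suds3 at 0.9998 just outside.

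The split of the calls moved with the scaling. With quantile normalization 5237 genes were higher and 5295 lower, and with the values the authors deposited, 5242 and 5332, so that 49.7% and 49.6% of the calls were higher in place of 60.6%. The median of all measured differences moved from 0.20 to -0.27 and -0.28 with it. The tails were unequal: 1506 genes were at least 16-fold higher (8.14%) and 275 at least 16-fold lower (1.49%), and 262 and 3 lay past a difference of 8 in size. These counts include bounds. With a detection limit of -5.79 in cells and -3.41 in ligament, a bound could reach further upwards than downwards. How much of the inequality rests on these limits was not tested.

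**Figure D1:**
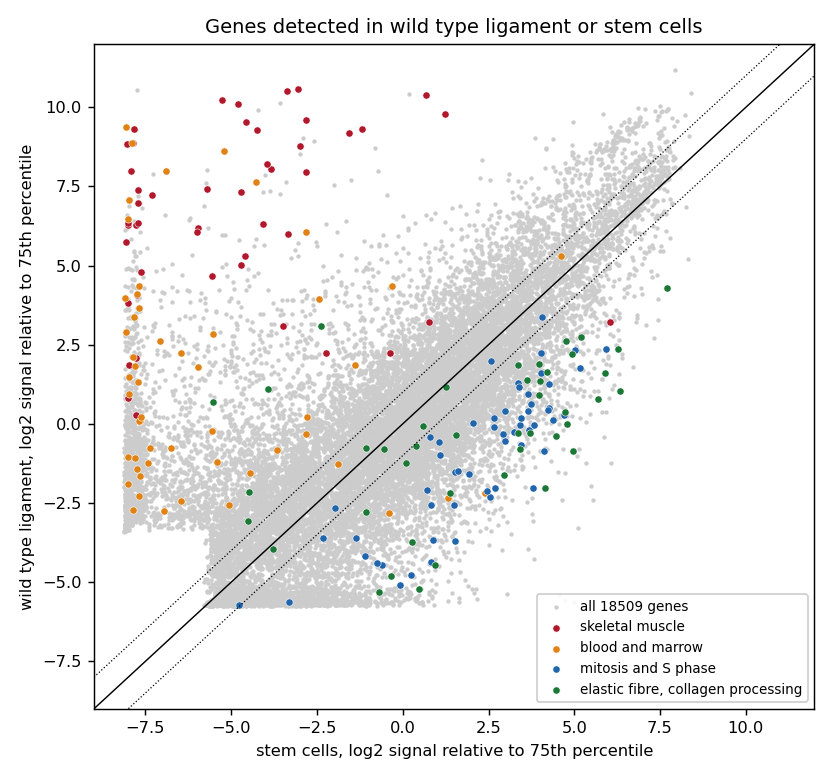
Relative log2 signal of the 18509 genes in stem cells (x axis) and wild type ligament (y axis), with the solid line at equality and the dotted lines at 2-fold. Muscle genes (red) and blood and marrow genes (orange) lie far above the line, and genes of mitosis, S phase, elastic fibre and collagen processing lie mostly below it.

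Skeletal muscle genes made the top of the list. All 12 detected genes of fast fibres were higher, with a median difference of 13.60. Troponin C of fast muscle (Tnnc2), which binds the calcium that starts contraction, had a relative signal of 10.24 in wild type ligament, -5.25 in cells, 10.18 in transgenic ligament and -5.00 in transfected tissue. Both ligaments were high and both cell-derived arrays near their floor, a difference of 15.49 in the comparison itself. All 24 genes of the sarcomere and muscle metabolism list were higher too (median 11.15), and so were 11 of 12 slow fibre genes (median 9.48), among them slow myosin Myh7 at 10.24. Of these lists, 5 fast fibre, 12 sarcomere and 4 slow fibre genes were well above background in ligament alone.

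The signal included genes better known from developing or regenerating muscle and heart. Of 10 detected genes of that list 7 were higher and none lower, the 2 measured on both arrays had a median of 1.37, and the fetal receptor subunit Chrng was not detected. Perinatal myosin (Myh8) was 10.54 in wild type ligament and not well above background in cells, a difference of at least 16.33 by its brightest probe and 6.78 by the mean of its probes. The fast fibre myosin Myh4 was not on the array by name. Probes were not realigned, so whether this Myh8 probe also reads other myosins was not tested. Cardiac actin (Actc1) was at least 15.08, and its signal was 9.30 in wild type but 4.94 in transgenic ligament. Embryonic myosin (Myh3) was at least 3.39 and the acetylcholine receptor subunit Chrna1 at least 6.11. Of 9 detected regulators of muscle identity 8 were higher, including Myf6 (at least 342-fold), Myod1 (at least 32.4-fold) and Myog (at least 21.8-fold), whereas the satellite cell genes Pax7 and Myf5 were not detected on either array. Of these 9 regulators, 6 were well above background in ligament alone, and the 2 measured on both arrays had a median of 3.61.

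Some genes had probes that pointed in opposite directions. Several probes were measured for 2757 genes, and 83 of these had 1 probe at least 2-fold higher and another at least 2-fold lower. The widest split was tropomyosin 1 (Tpm1), the rod protein that lies along actin and is spliced to different ends in muscle and other cells. Its 6 probes on chromosome 9 (mm9) ran from 10.24 to -4.31. The probe at the lower end is printed here because it is the end of the gene that the cells favoured, and the others because they are the parts of Tpm3, aspartyl hydroxylase (Asph) and the actin-binding Pdlim7 that ligament favoured. They are the array's 60-base probes, 5′ to 3′, with no part in capitals.
Tpm1, chr9:66871166-66871225, minus strand: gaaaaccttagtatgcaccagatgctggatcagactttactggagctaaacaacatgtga
Tpm3, chr3:89892985-89893044, plus strand: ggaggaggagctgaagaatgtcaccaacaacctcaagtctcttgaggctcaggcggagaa
Asph, chr4:9563054-9563113, minus strand: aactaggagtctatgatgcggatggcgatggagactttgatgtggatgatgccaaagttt
Pdlim7, chr13:55610290-55610349, minus strand: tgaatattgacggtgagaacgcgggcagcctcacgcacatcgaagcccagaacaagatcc

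The printed Tpm1 probe had a relative signal of -0.97 in wild type ligament, 3.34 in cells, -1.28 in transgenic ligament and 3.58 in transfected tissue. The opposite Tpm1 probe, at chr9:66875796-66875855, had 10.42, 0.18, 10.18 and -0.20 in the same order. So the same gene was 19.9-fold lower and 1211-fold higher by the probe that read it, and both ligaments stood on one side for both probes. The printed Tpm3 probe was 3.47 in ligament and -2.87 in cells (81.3-fold higher), while a probe further along the gene was 3.22 and 6.05 (7.11-fold lower). Asph was 96.5-fold higher by the printed probe and 7.65-fold lower by another, and Pdlim7 was 69.7-fold higher and 2.37-fold lower. The phosphodiesterase-binding protein gene Pde4dip had probes 727-fold higher and 2.66-fold lower. For such genes the value of 1 probe is not the value of the gene, and the slow fibre gene that was lower above is Tpm3 by its brighter probe.

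**Figure D2:**
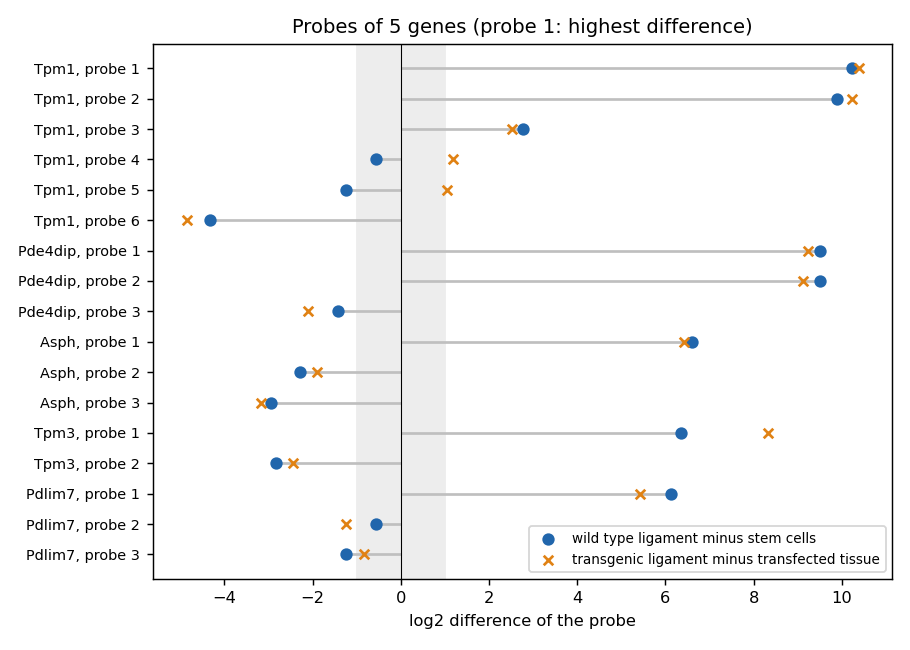
Log2 difference of each probe of 5 genes with probes in opposite directions, wild type ligament minus stem cells (circles) and transgenic ligament minus transfected tissue (crosses); the grey band is less than 2-fold. The 6 probes of Tpm1 run from 10.24 to -4.31, and the crosses lie near the circles for most probes.

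Blood and marrow genes formed the second large group. All 15 detected erythroid genes were higher (median 5.88). Of these, 11 were well above background in ligament alone, and the 4 measured on both arrays had a median of 5.64. The haem synthesis enzyme of red cell precursors, Alas2, was 3.36 in wild type ligament, 1.19 in transgenic ligament and not well above background in the cells or the transfected tissue. That made it at least 568-fold higher than in cells. Adult alpha globin Hba-a1 was 13.84 higher, though the probes of Hba-a1 and its twin Hba-a2 may each catch RNA of the other, and the embryonic globins Hbb-y, Hbb-bh1 and Hba-x were not detected.

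White cell genes covered immature and mature stages. Of 18 neutrophil genes 17 were higher (median 7.66), from the primary granule enzyme myeloperoxidase (Mpo, at least 866-fold) to the late granule proteins Camp (11.93) and Ltf (84.1-fold). Of the 18, 11 were well above background in ligament alone, and the 7 measured on both arrays had a median of 4.67. All 14 detected eosinophil and mast cell genes were higher, led by the eosinophil granule protein Prg2 at 4.91 in wild type and -0.27 in transgenic ligament. Only 3 of these 14 genes were measured on both arrays, and the other 11 were well above background in ligament alone. The summed relative signal of that list was 59.5 times the 75th percentile in wild type ligament, 4.09 in transgenic ligament and 0.206 in cells, so the ligaments themselves lay far apart. B lineage genes were higher for 10 of 12 detected, including Vpreb1 (8.08-fold) and Dntt (18.5-fold) of B cell precursors, and Ebf1, which stromal and fat precursors also use, was 23.9-fold lower. Of the 12 detected, 7 were well above background in ligament alone, and the 5 measured on both arrays had a median of 3.01. Another 4 of the 16 listed B lineage genes, precursor genes among them, were not detected on either array. Of 8 megakaryocyte genes 6 were higher and 2 lower. The platelet protein Pf4 was at least 411-fold higher, and the 3 genes of that list measured on both arrays had a median of -2.42.

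Most detected marker genes of bone, fat, skin and vessels had a higher signal in ligament as well. Whether these tissues lay in the sample was not tested. All 9 detected osteoclast genes were higher, with the matrix-dissolving protease Ctsk at 4.53 in wild type ligament, -4.55 in cells, 4.83 in transgenic ligament and -4.24 in transfected tissue, and the acid phosphatase Acp5 at least 12.23 higher. Among 11 bone genes 7 were higher, such as bone sialoprotein Ibsp (at least 406-fold) and osteocalcin Bglap (at least 305-fold), while Runx2 and Dlx5, transcription factors that start the bone programme, were bounded at -1.70 and -1.52 (-0.42 and -0.57 with normexp background correction). Sost and Sp7 were not detected. Of 15 fat cell genes 12 were higher (median 4.91), with adiponectin (Adipoq) at least 300-fold, whereas their regulator Pparg was 3.47-fold lower. Skin genes were higher for 19 of 20 (median 4.50), with the basal keratin Krt5 at 134-fold and the cornified envelope protein loricrin (Lor) at least 556-fold. In ligament alone, 9 of the fat cell, 9 of the skin, 4 of the bone and 3 of the osteoclast genes were well above background. The 3 bone genes measured on both arrays had a median of 2.97. Endothelial genes were higher for 11 of 15, with 6 well above background in ligament alone. The 8 endothelial genes measured on both arrays had a median of 2.00. Of 13 detected nerve and Schwann cell genes 7 were higher, 5 within 2-fold and 1 without a value. The 8 of them measured on both arrays had a median of 0.16. The myelin gene Mbp of that list was higher by at least 5.08 log2 units, and by 3.83 with the mean of its probes.

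Summed signals are given to compare arrays within a list, not lists with each other, since each list sums other probes. The summed relative signal of the fast muscle list was 7458 times the 75th percentile in wild type ligament and 0.460 in cells, that of the erythroid list 1115 and 0.293, and that of the tendon and ligament list 67.4 and 46.2. In bulk RNA, fewer cells of a type and less RNA per cell cannot be told apart. The part of these tissues in the differences below was not tested.

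**Figure D3:**
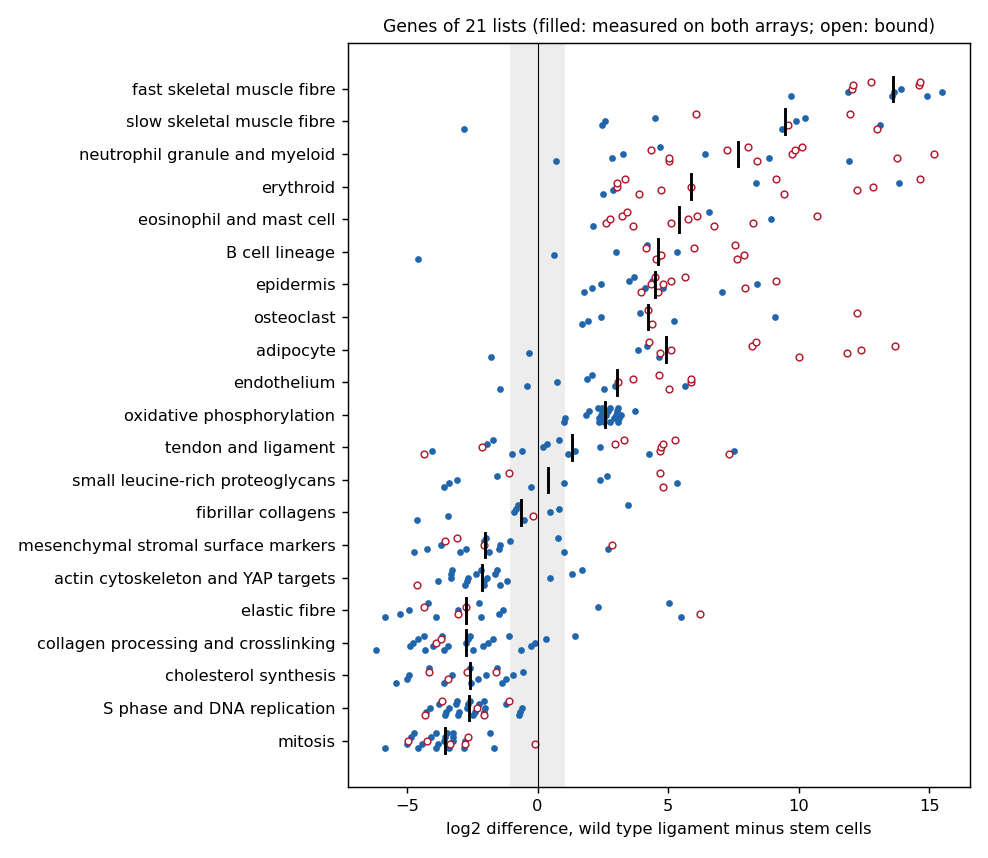
Log2 difference (ligament minus cells) of every gene of 21 lists; filled points were measured on both arrays, open points are bounds, black bars are medians and the grey band is less than 2-fold. Muscle and marrow lists lie to the right, matrix processing, cholesterol and cell division lists lie to the left, and the tendon and ligament list spans both sides.

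The tendon and ligament list itself was divided: of 24 genes 12 were higher, 5 lower, 5 within 2-fold and 2 without a value, and its median was 1.31 against 0.29 for all genes. The median ran from 0.36 to 1.38 over the settings tried. It was within 2-fold with quantile normalization, with the deposited table and, at 0.36, over the 13 members that both arrays measured. Of the markers that define the tissue, Scx was 2.02 in wild type ligament, 0.57 in cells, 3.10 in transgenic ligament and -1.18 in transfected tissue, hence 2.73-fold higher. Tnmd was -2.89, -0.95, -0.43 and -1.61 in the same order. Tnmd was thus 3.82-fold lower in wild type ligament than in cells, yet higher in transgenic ligament than in transfected tissue (1.18). Mkx was not well above background in wild type ligament, which put it at least 4.40-fold lower there. With normexp background correction Tnmd (-0.91) and Mkx (-0.83) were within 2-fold.

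Secreted proteins of tendon and its sheath stood clearer. Thrombospondin 4 (Thbs4), which organises collagen at the tendon and muscle junction, was 2.59 in wild type ligament, -4.95 in cells, 4.60 in transgenic ligament and below background in transfected tissue. It was 186-fold higher in the comparison. The lubricant lubricin (Prg4) was 19.4-fold higher, Angptl7 at least 162-fold, keratocan (Kera) at least 4.81 log2 units, chondroadherin (Chad) at least 25.6-fold and the cartilage layer protein Cilp at least 10.0-fold. Fibromodulin (Fmod), which binds collagen fibrils as they thicken, was 5.18-fold higher. Comp differed by 0.21, about the SD of repeated spots. On the lower side stood the growth factor response gene Egr1 (16.6-fold), the fetal fibrillin Fbn2 (at least 20.4-fold) and the collagen receptor subunit Itga11 (3.26-fold).

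The main fibril collagens differed little, and their place relative to 2-fold rested on the scaling. Col1a1 was 7.22 in wild type ligament, 6.41 in cells, 6.70 in transgenic ligament and 5.34 in transfected tissue, a difference of 0.81. Col1a2, the other chain of type I collagen, differed by -0.82 and Col3a1 by -0.74. All 3 genes were bright on every array and within 2-fold with this scaling. With quantile normalization Col1a1 was at -0.20, Col1a2 at -1.89 and Col3a1 at -1.53, so the last 2 were then lower. Both lower members were Col5a1 (24.5-fold), a chain of the type V collagen that starts fibrils, and the cartilage collagen Col2a1 (10.6-fold). The single higher one was Col11a2 (3.46 log2 units). Of 20 other collagens 6 were higher and 8 lower. The type VI chains Col6a1, Col6a2 and Col6a3, which form beaded filaments around cells, were 13.8-fold, 17.0-fold and 4.03-fold lower. The collagen of the muscle and tendon junction, Col22a1, was at least 203-fold higher, and the skin collagen Col17a1 was 4.70 log2 units higher.

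Small leucine-rich proteoglycans, which coat collagen fibrils, went both ways, with 6 of 13 higher and 5 lower. Lumican (Lum) was 4.05 in wild type ligament, -1.31 in cells, 4.79 in transgenic ligament and 3.54 in transfected tissue, so only the untreated cells were low, and it was 41.0-fold higher in ligament than in them. Decorin (Dcn) was lowest in cells too, with 6.35, 3.71, 6.72 and 6.46 on the arrays in that order, and was 6.24-fold higher. Osteoglycin (Ogn), biglycan (Bgn) and asporin (Aspn) were 11.8-fold, 10.5-fold and 8.57-fold lower. The sign of this list's median was not stable over the settings tried, which gave -0.64 to 0.39.

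Genes that assemble elastic fibres were mostly lower in ligament, 13 of 17, with a median of -2.72. The latent TGF-beta binding protein Ltbp2 was -0.87 in wild type ligament, 4.96 in cells, -0.58 in transgenic ligament and 3.69 in transfected tissue. It was 56.7-fold lower. Fibulin 5 (Fbln5) and fibulin 4 (Efemp2), which place elastin on microfibrils, differed by -5.28 and -4.91. Fibrillin 1 (Fbn1) differed by -4.21, and elastin (Eln) was at least 8.33-fold lower. Both ligaments were dim for Eln. The 4 higher genes were Mfap2 (at least 6.23 log2 units), Ltbp4 (5.49), Mfap4 (5.04) and Fbln1 (2.32), of which Mfap2 and Mfap4 are microfibril proteins. On the arrays not used, the same 4 genes were higher and the same 13 lower.

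Collagen-processing enzymes showed the most one-sided matrix pattern, with 20 of 26 lower, 1 higher and a median of -2.75. Lysyl oxidase (Lox), which crosslinks collagen and elastin, was -2.01 in wild type ligament, 4.16 in cells, 0.04 in transgenic ligament and 2.53 in transfected tissue. It was 72.0-fold lower in wild type ligament than in cells. Its relative Loxl1 was 29.2-fold lower, and the prolyl 3-hydroxylation partners Crtap and P3h3 27.2-fold and 23.9-fold. The collagen chaperones Fkbp10 and Serpinh1 were 19.7-fold and 5.48-fold lower, and the procollagen C-proteinase Bmp1 and its enhancer Pcolce differed by -2.57 and -3.42. Loxl2 differed by 0.31, and the proteinase Tll1 alone was higher (2.69-fold). With quantile normalization Tll1 was at 0.48 and Lox at -6.60.

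**Figure D4:**
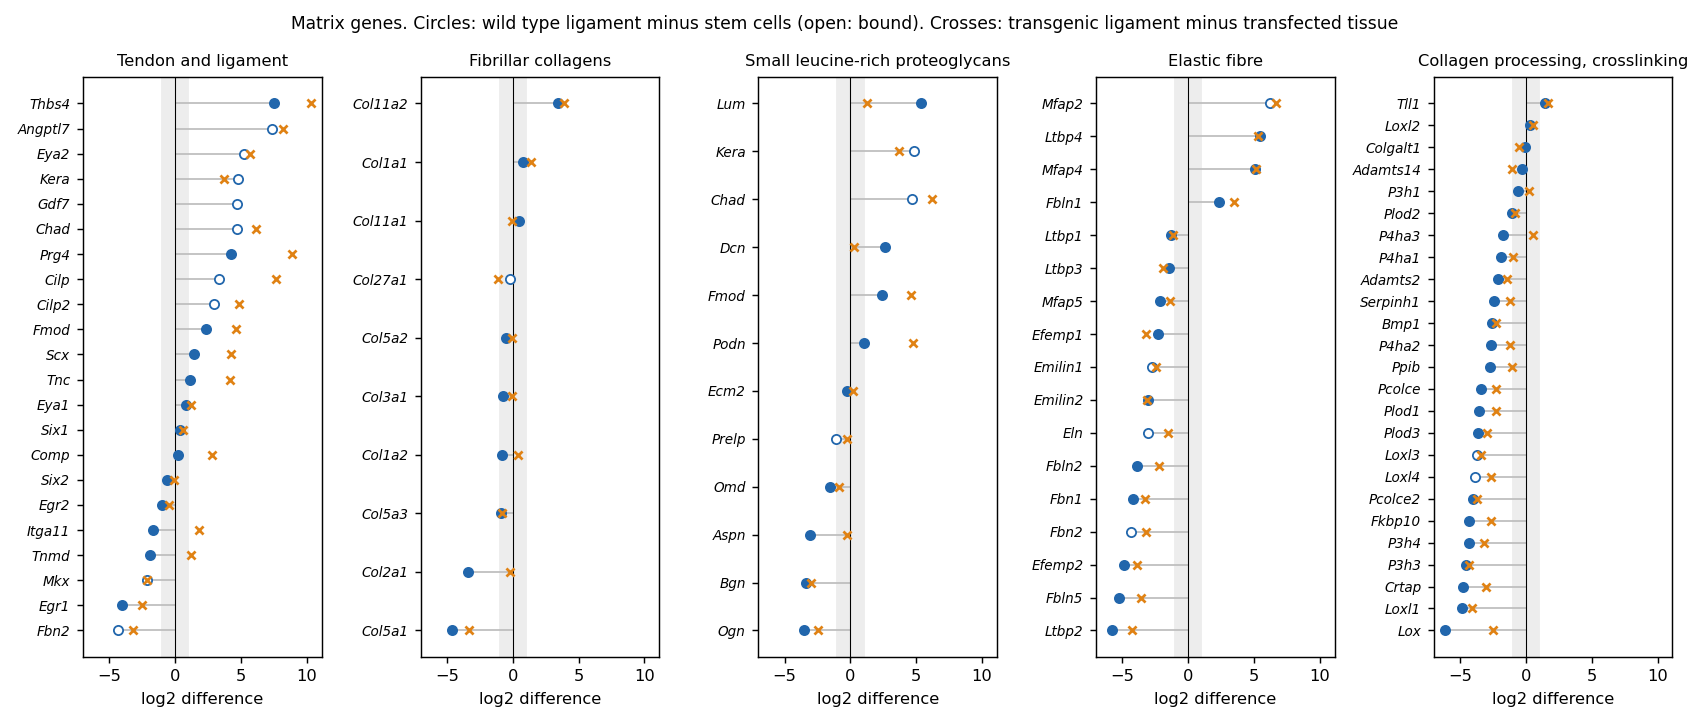
Log2 difference of the genes of 5 matrix lists, wild type ligament minus stem cells (circles, open where the value is a bound) and transgenic ligament minus transfected tissue (crosses); the grey band is less than 2-fold. Type I and III collagen chains lie in or near the band with this scaling, most collagen processing genes lie to the left of it, and the tendon list runs from Fbn2 to Thbs4.

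Among matricellular proteins, which signal to cells from the matrix, 10 of 22 were lower and 6 higher. Ccn5 was 175-fold lower and Ccn3 at least 62.4-fold, and fibronectin (Fn1) was 4.08-fold lower. Sparc, a collagen chaperone bright on all arrays, differed by 0.68 (-0.38 with quantile normalization and 2.93 by the mean of its probes), and its relative Sparcl1 was 45.9-fold higher. Tenascin X (Tnxb), which links collagen fibrils, was 101-fold higher. Of 19 detected basement membrane genes 6 were higher and 8 lower (median -0.46). Laminin alpha 4 (Lama4) and nidogen 2 (Nid2) were 23.3-fold and 43.6-fold lower, and the muscle laminin alpha 2 (Lama2) 66.0-fold higher. The protease list held 11 lower genes of 19, with the inhibitors Timp1 and Timp3 31.8-fold and 29.9-fold lower. Mmp9, Mmp13 and Mmp8, proteases of neutrophils, osteoclasts and bone, were 37.7-fold, 41.4-fold and at least 155-fold higher.

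Markers used to recognise cultured mesenchymal cells were lower in ligament for 14 of 18 and higher for 3. Sca-1 (Ly6a) was 1.58 in wild type ligament, 6.30 in cells, 1.87 in transgenic ligament and 5.62 in transfected tissue, 26.3-fold lower. Thy1 was 18.9-fold lower and the receptor Pdgfra 3.65-fold. Between transgenic ligament and transfected tissue 9 of the 18 genes were lower and 5 higher. The cell array was well above background for 17 of the 18 genes, all but Nt5e. Fibroblast genes of tissue were higher for 10 of 15: Igfbp6 142-fold, the progenitor markers Cd34 and Pi16 64.2-fold and 30.4-fold, and dermatopontin (Dpt) at least 45.1-fold. The ferritin receptor Scara5 was 37.7-fold lower. Of 13 pluripotency genes 9 were detected, 6 of them in cells, and 7 were higher in ligament and 1 lower. Pou5f1, Sox2, Zfp42 and Dppa3 were not detected on either array. Nanog and Tdgf1 were 7.07-fold and 91.1-fold higher in ligament by probes that were not realigned and may read copies of these genes.

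Cell division genes were lower in ligament almost throughout. Of 28 mitosis genes 26 were lower and none higher (median -3.53), and of 28 genes of DNA replication 25 were lower and none higher (median -2.62), against 21.9% lower over all genes. Cdc20, which triggers chromosome separation, was 0.27 in wild type ligament, 4.69 in cells, -0.62 in transgenic ligament and 1.15 in transfected tissue. Cells were highest and the transfected tissue lay between, and wild type ligament was 21.5-fold lower than cells. The kinesin Kif20a was 57.0-fold lower, topoisomerase Top2a 29.0-fold and the kinase Cdk1 26.2-fold. Cyclin B2 (Ccnb2) was 13.9-fold lower and the replication helicase subunit Mcm5 17.5-fold, but Rrm2 and Rfc4 lay within 2-fold. Between transgenic ligament and transfected tissue 19 of the 28 mitosis genes were lower, and 11 of the 28 replication genes with 3 higher.

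Promoters of mitosis genes are shown because these genes differed in one direction and because 2 short elements recur in many of them: CCAAT, bound by the factor NF-Y, and TTTGAA, the core of the element through which the MuvB complexes hold late cell cycle genes silent in resting cells. Printed are the 200 bases before the transcription start from RefSeq (GRCm38.p6), 5′ to 3′ along the gene, with both elements on either strand in capitals. Of 7 mitosis promoters read over these 200 bases, the 4 printed are those that held both elements, while 2 held CCAAT alone and 1 held neither.
Cdc20, chr4:118437344-118437543, minus strand: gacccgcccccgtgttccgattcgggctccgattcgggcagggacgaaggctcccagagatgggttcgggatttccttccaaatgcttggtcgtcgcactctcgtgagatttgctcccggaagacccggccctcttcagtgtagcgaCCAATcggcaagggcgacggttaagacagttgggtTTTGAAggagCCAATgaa
Ccnb2, chr9:70421555-70421754, minus strand: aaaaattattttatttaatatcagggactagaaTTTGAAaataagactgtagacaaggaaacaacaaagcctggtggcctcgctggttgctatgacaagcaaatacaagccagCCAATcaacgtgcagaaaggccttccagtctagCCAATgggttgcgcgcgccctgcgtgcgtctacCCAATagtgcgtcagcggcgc
Cdk1, chr10:69352913-69353112, minus strand: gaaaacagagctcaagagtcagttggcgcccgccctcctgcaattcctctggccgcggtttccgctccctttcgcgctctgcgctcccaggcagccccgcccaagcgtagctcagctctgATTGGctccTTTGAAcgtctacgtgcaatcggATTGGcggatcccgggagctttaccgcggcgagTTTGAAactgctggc
Top2a, chr11:99024190-99024389, minus strand: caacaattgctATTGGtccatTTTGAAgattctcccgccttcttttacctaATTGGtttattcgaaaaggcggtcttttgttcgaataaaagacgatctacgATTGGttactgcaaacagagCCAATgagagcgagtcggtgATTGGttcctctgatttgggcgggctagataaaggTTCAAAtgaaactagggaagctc

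The table of promoters held 23 of the 28 mitosis genes. Within 250 bases before and 50 after the start, 18 of the 23 held TTTGAA (78.3%) and 18 held CCAAT (78.3%), against 12.6% and 38.7% of the 11825 promoters of the genes compared and 18.1% and 37.9% of all 27025 promoters. At least 2 copies of CCAAT stood in 12 (52.2%), against 14.3% of the promoters of the genes compared. The 23 replication genes with a promoter held CCAAT in 14 (60.9%) but TTTGAA in 3. As a contrast from the ligament side, 17 of 18 neutrophil genes had a promoter, and TATAAA stood in 7 of them (41.2%, against 8.90% of the promoters of the genes compared and 14.2% of all). The ratio of observed to expected CpG had a median of 0.157 in neutrophil promoters, 0.884 in mitosis promoters, 0.725 in those of the genes compared and 0.389 in all. The S100a8 promoter is printed for this contrast with TATAAA in capitals, and was the only one to hold it of 8 neutrophil promoters read over these 200 bases. S100a8 was at least 13.78 higher in ligament.
S100a8, chr3:90668871-90669070, plus strand: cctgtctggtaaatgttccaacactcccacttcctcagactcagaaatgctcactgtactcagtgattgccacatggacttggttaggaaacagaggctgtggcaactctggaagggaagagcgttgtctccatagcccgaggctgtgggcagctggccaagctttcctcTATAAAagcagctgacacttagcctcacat

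The matches describe letters in a window and not binding.

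Cyclins and their inhibitors held 9 lower and 3 higher genes of 19. Cyclin D1 (Ccnd1), which links growth factors to entry into the cycle, was -2.39 in wild type ligament, 4.64 in cells, -1.39 in transgenic ligament and 3.75 in transfected tissue. Both ligaments were low and both cell-derived arrays high, and the difference was 131-fold. Ccnd2 was 26.3-fold lower and Ccnd3 differed by -0.62. The inhibitor Cdkn1c was 197-fold higher, and Cdkn2a, which accumulates in cultured cells, at least 14.9-fold lower. Of 25 ribosome biogenesis and nucleotide genes 13 were lower, such as nucleolin (Ncl, 3.05-fold), and 1 was higher (Cad, 11.1-fold).

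Genes of mitochondrial energy supply were higher in ligament. All 24 genes of oxidative phosphorylation were higher, between 1.02 and 3.73, with a median of 2.59. Ndufa4 was 7.20 in wild type ligament, 4.50 in cells, 7.09 in transgenic ligament and 4.55 in transfected tissue. Of 16 fatty acid oxidation genes 14 were higher, with the muscle carnitine transferase Cpt1b at 101-fold and the fatty acid carrier Fabp3 at least 12.30 on the log2 scale, and the liver-type Cpt1a was lower (-3.38). Of 25 genes of glycolysis and hypoxia 14 were higher and 8 lower. The muscle enzymes Pfkm and Eno3 were 5.16 and 8.57 higher, and the widely used Pfkl, Pgam1 and Eno1 differed by -5.27, -4.31 and -2.41, but the widely used Aldoa was 3.26 higher. Aldoa was within 2-fold with quantile normalization (0.81) and with the deposited table (0.87). The muscle lists, whose summed signal is given above, were higher in the same ligaments, and their part in these values was not tested.

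Cholesterol synthesis was lower for 17 of 19 genes, none higher, with a median of -2.60. Squalene epoxidase (Sqle) was -0.78 in wild type ligament, 4.66 in cells, 0.39 in transgenic ligament and 3.52 in transfected tissue, 43.3-fold lower. The synthase Hmgcs1 was 4.91-fold lower. Actin cytoskeleton genes and targets of the stretch-sensed factor YAP were lower for 17 of 20 (median -2.12), among them Ccn1 (9.64-fold), Ccn2 (5.05-fold) and beta actin (Actb, 2.68-fold), a common reference gene. Smooth muscle actin (Acta2), which cultured fibroblasts raise as they become contractile, was 42.8-fold lower, on a smooth muscle and pericyte list with 7 of 14 higher and 5 lower.

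Growth factor signalling differed in part. Of 23 TGF-beta and BMP genes 13 were lower and 6 higher. The ligand Bmp4 was 47.1-fold lower by its brightest probe and differed by -1.63 by the mean of its probes. Wnt genes split into 8 higher and 6 lower of 18. The Wnt enhancer Rspo2 was at least 341-fold lower and the inhibitor Sfrp2 66.2-fold lower, the receptor Fzd2, of no list, 117-fold lower, and the ligand Wnt4 128-fold higher. The sign of the Wnt list's median changed between settings (-0.32 to 1.99).

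The lowest genes of all measured on both arrays were Ptx3, a secreted pattern recognition protein (245-fold lower), Ccn5, the growth factor pleiotrophin (Ptn, 158-fold), Ccnd1 and Fzd2. Snai1, a repressor of epithelial genes, was 96.5-fold lower and the growth arrest protein Gas1 69.6-fold. Bounds reached at least 337-fold for the oestrogen-metabolising enzyme Cyp1b1 and at least 250-fold for the collectin Colec10. Among the 15 largest lower bounds was Ifi202b, an interferon-inducible gene known to be nearly silent in C57BL/6 mice. It was 2.26 in C3H cells and 1.68 in the C3H-derived tissue, and not well above background in either C57BL/6J ligament. Origin divides these arrays in the same way as strain, and the cause of the difference was not tested.

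Genes of body position divided within the Hoxa cluster. Hox genes are ordered along the chromosome as they are used from head to tail, and in a limb from shoulder to digit. In the Hoxa cluster, 5 of the 6 genes from Hoxa2 to Hoxa7 were lower in ligament and none higher, and all 4 from Hoxa9 to Hoxa13 were higher. Hoxa7 was 0.13 in wild type ligament, 2.80 in cells, 1.06 in transgenic ligament and 2.88 in transfected tissue. Hoxa11, a gene of the forearm and lower leg, was -1.02 and 0.23 in the ligaments and below background in the cells and the transfected tissue, at least 27.2-fold higher. Hoxa10 was 17.1-fold higher and Hoxa13 at least 5.76-fold. Hoxa2, Hoxa5 and Hoxa6 were well above background in cells alone, with Hoxa5 and Hoxa6 bounded at -1.56 and -1.72. Hoxa9, Hoxa11 and Hoxa13 were well above background in ligament alone, and Hoxa9 (-3.02) and Hoxa13 (-3.26) lay close to the detection limit of -3.41. In transgenic ligament and transfected tissue Hoxa9 was alike (-2.47 and -2.55), and Hoxa6 was -4.02 and -5.68, so these genes did not follow the division there.

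**Figure D5:**
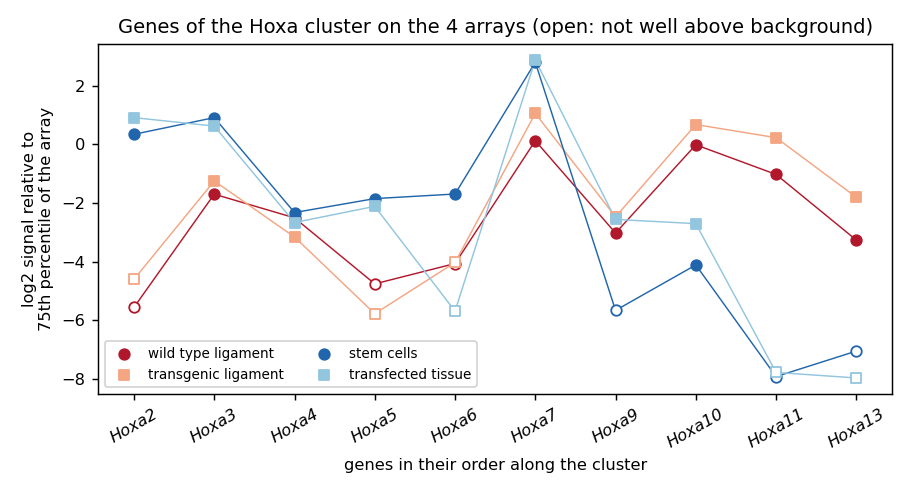
Relative log2 signal of 10 Hoxa genes, in their order along the cluster, on the 4 arrays; open symbols are not well above background. Stem cells and transfected tissue lie above both ligaments for Hoxa2, Hoxa3, Hoxa5 and Hoxa7, and below them for Hoxa10, Hoxa11 and Hoxa13. For Hoxa4, Hoxa6 and Hoxa9 the arrays do not divide in this way.

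Most detected genes of the other clusters were higher, while Hoxb3 (0.47) and Hoxc13 (-0.65) were within 2-fold and Hoxc12 had no value. Among the higher ones only Hoxc9 (4.64) was measured on both arrays. Hoxb6, Hoxc4, Hoxc6, Hoxc10, Hoxc11, Hoxd8, Hoxd9 and Hoxd10 were well above background in ligament alone, so their call says no more than their detection does. Hoxd10 (-2.97) lay close to the detection limit in ligament. All 3 detected Hoxd genes of the posterior group were higher, with Hoxd8 at least 200-fold, and 3 of 5 detected posterior Hoxc genes, with Hoxc10 at least 174-fold. Hoxb6 was at least 35.6-fold higher. Hoxd11, Hoxd12 and Hoxd13 were not detected on either array. Of 16 detected limb patterning and homeobox genes 7 were higher and 7 lower. Tbx4 and Pitx1, which mark the hindlimb, were at least 10.3-fold and 9.54-fold higher, and the forelimb factor Tbx5 was not detected on either array. In both ligaments Tbx4 and Pitx1 were above background (-2.42 and -2.20, and -2.53 and -1.84), and in cells and transfected tissue neither was. Prrx2 and Prrx1, factors of limb bud mesenchyme, were 77.1-fold and 7.88-fold lower, and Twist1 at least 8.49-fold.

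Other gene groups differed in parts. Of 11 glucocorticoid targets 10 were higher, including Fkbp5 at 4.34 in wild type ligament, -0.37 in cells, 3.92 in transgenic ligament and -2.77 in transfected tissue, Tsc22d3 (23.5-fold) and Zbtb16 (at least 485-fold). Circadian genes were higher for 8 of 15 and lower for 2, with Arntl and Per1 4.21-fold and 5.11-fold higher. Of 17 immediate early genes 9 were lower and 2 higher, and Fos was 4.68-fold lower. Stress genes of the endoplasmic reticulum were lower for 10 of 18, such as Trib3 (19.2-fold), while Atf4 differed by 0.48. Of 15 detected fetal growth genes 5 were higher and 8 lower: Mest was 42.3-fold lower, Igf2 and Dlk1 at least 24.4-fold and 17.4-fold higher. Of 16 antigen presentation genes 6 were higher and 6 lower. The class II molecule H2-Aa was at least 71.9-fold higher and B2m of class I 5.69-fold lower. Chemokines were 7 higher and 7 lower of 17: Ccl2, Ccl7 and Il6 at least 151-fold, 43.1-fold and 10.2-fold lower, and Cxcl14 at least 351-fold higher. Xist, the RNA of the silenced X, differed by -1.29 (-0.64 with normexp background correction) and 4 Y chromosome genes were not detected on either array.

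Some genes that lie side by side were called the same way. There were 34 runs of at least 6 neighbouring detected genes that were all higher and 7 that were all lower. How many would arise from these shares of calls alone was not tested. Among the higher ones were 9 genes of the keratin cluster on chromosome 15 from Krt5 to Krt18, the 9 genes of chromosome 7 that include Tnni2, Tnnt3 and Igf2, and 9 on chromosome 16 with the stefins Stfa1, Stfa2 and Stfa3 of neutrophils. Hoxa9 to Hoxa13 formed another. One of the longest, with 10 genes on chromosome 4, held the major urinary protein copies from Mup4 to Mup3, whose near-identical sequences may share probe signal. One lower run on chromosome 10 held Col6a2, Col6a1 and Col18a1.

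The same genes were read as transgenic ligament minus transfected tissue, on arrays that entered the choice of each gene's probe but not the differences that chose the genes. Of the 6233 genes higher in wild type ligament than cells, 4806 (77.1%) were higher there and 35 (0.562%) lower, beside 33.1% higher and 20.4% lower over all 18509 genes. Of the 4059 lower genes, 2809 (69.2%) were lower and 76 (1.87%) higher. The transgenic mice share the strain and tissue of the wild type mice and the tissue derives from the same cells, so these arrays repeat the contrast of strain and origin with it. Lum and Dcn differed more between cells and transfected tissue than between the ligaments, as did the fat genes Adipoq and Cfd, whose signal was -0.86 and 0.04 in transfected tissue and below background in untreated cells.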

How the data were processed

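RNA of 4 samples, 1 per group, was hybridised to 1 single-colour array each. Per the file headers, the deposited scanner files hold linear spot intensity after background subtraction and detrending by Feature Extraction 10.7.1.1 (the submitters' processing notes name 9.5.1.1). The authors' deposited value table also holds intensity, with nearly equal distributions in its columns; its normalization is not given in the sources used here, and it served as an alternative.

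Control spots and outlier spots were left out. Signals were taken as log2 minus the 75th percentile of the array, spots of a probe were averaged, and a gene was read from its brightest probe by the mean of all arrays. Of 39413 probes, 26753 were named through RefSeq accessions (GRCm38.p6), 3811 by symbol, 639 by synonym and 8210 by the name in the files. Probe positions are those of the files (mm9), and probes were not realigned. Scripts ran in Python 3.11.15, with limma 3.58.1 in R 4.3.3 for normexp (offset 50), and were tested on simulated data.

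The members, the 59 gene lists, the motifs and the genes printed were chosen with earlier results of these data known. Genes were named from the lists, the 25 highest and 25 lowest measured differences, the 15 largest bounds in each direction, the 12 widest probe splits and the 10 brightest genes of each array; Gm5745, Tsku, U2af1l4 and Suds3, the genes of the runs and Hoxa members outside the lists were added for position. Most lists that the text draws on are described by counts and some also by medians, with bounded genes at their bound. The alternatives were normexp background correction, quantile normalization, the deposited table, another centring, 2 filters on dim probes and the mean of all probes. Intervals that need counts do not apply to arrays, and the number of arrays limits the precision. Some genes are not reported here.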

Additional observations from a re-analysis of the deposited data

How the results depend on the processing

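No paired analysis was possible because each group has 1 array. Under the 7 alternatives for the whole comparison the counts stayed within 1.5 times, except that 17284 genes were higher with no filter and no bound, where dim genes enter. Between 73.1% and 82.6% of the calls had their direction between transgenic ligament and transfected tissue. Of 58 list medians 46 kept their sign. Those past 2-fold that changed it were megakaryocyte (-2.42) and smooth muscle and pericyte (-0.72), with genes well above background on both arrays. Chemokines and cytokines changed to 1.12 with normexp, 1.39 with that stricter filter and 1.37 with no filter, and X inactivation and Y chromosome to 2.32 with no filter. Quantile normalization and the deposited table gave Gm5745 -0.041 and -0.0282, and the mean of all probes gave Pdlim7 1.44 and Tpm3 4.30. The cause was not tested, apart from Pdlim7 and Tpm3, whose probes point in opposite directions. Of 190 named genes past 2-fold, 178 stayed past it in the same direction in every setting that gave them a value. Normexp moved 109 of 201 named genes by over 1.5 times, quantile normalization 100 of 203, and the deposited values 74 of 203. No filter and no bound moved 51 of 203. Another centring moved 0 of 203, and the filter for both arrays well above background 0 of 138. With normexp the bound of Myf6 was 5.89 log2 units in place of 8.42, and that of Ibsp 6.23 in place of 8.67. The mean of all probes moved 36 of 202 named genes by over 1.5 times, among them Cdk1 (-2.45), Fzd2 (-4.16), Gas1 (-3.32), Tpm1 (2.80), Bglap (4.82) and Loxl2 (1.51). A gene dim in ligament has a bound only from -3.41 upwards, so small decreases of dim genes were not detectable.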

Other observations

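Gene families grouped by the start of their symbol, and named here after their values were seen, added groups outside the lists. Medians are log2 differences of wild type ligament minus cells, with bounded genes at their bound, and over all genes 33.7% were higher and 21.9% lower. All 15 detected Ndufa genes, most of which encode subunits of respiratory complex I, were higher in ligament (median 2.36), and all 15 were so under each of the 7 alternatives, with medians from 1.40 to 2.44. Of 49 mitochondrial ribosome genes (Mrpl) 25 were higher and none lower (median 1.02), against 18 higher with quantile normalization (median 0.59). Of 15 Asb genes, whose proteins are adaptors of ubiquitin ligases, 11 were higher and none lower (median 4.48). Among the 8 Asb genes well above background on both arrays 5 were higher (median 1.81), and with the mean of all probes 1 Asb gene was lower.

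On the side of the cells, 11 of 19 Nup genes, most of which encode proteins of the nuclear pore, were lower in ligament and 1 was higher (median -1.43), and 14 were lower with quantile normalization. Of 15 protocadherin genes of the beta group (Pcdhb) 8 were lower and none higher (median -1.36), but 1 of them was well above background on both arrays and the others rest on bounds. With normexp background correction 3 Pcdhb genes were lower.

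The direction of 2 families rested on the processing. Cytosolic ribosome genes (Rpl) had 17 of 56 higher and 1 lower (median 0.60), against 4 higher and 13 lower with quantile normalization (median -0.56). Kinesin genes (Kif), motors of microtubules, had 15 of 31 lower and 8 higher (median -1.07), and among those well above background on both arrays 4 were lower and 7 higher (median 1.13). Genes of the protocadherin and ribosome families are alike in sequence, and probes were not realigned.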
